A study of Mus musculus with 7 samples.

Results

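The genes described here are 41 members of the machinery that carries ions across the membranes of the heart muscle cell and that handles its calcium, taken by name from a table of 56980 mouse genes. They were taken for their known roles. By role they are 1 sodium channel subunit, 5 calcium channel subunits, 8 subunits of voltage-gated potassium channels, 8 inward rectifier, ATP-sensitive (KATP) and background potassium channel genes, 2 pacemaker channels, 8 proteins of calcium release and storage in the sarcoplasmic reticulum, 4 pump and exchanger genes, and 5 genes of inositol trisphosphate, store-operated and mitochondrial calcium transport. All 41 were above 0 FPKM in every heart. FPKM is the number of sequenced RNA fragments on a gene per kilobase of gene length and scaled to the number of fragments in the library.

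RNA was sequenced from the myocardium of 7 wild-type male C57BL/6J mice, a common inbred strain, which arrived when 8 weeks old and were given 1 week to acclimate. In 3 of them (MI) the left coronary artery was tied off to cause a myocardial infarction, and 4 (sham) had the same operation without the ligation. Tissue was collected 4 days after the infarction, and each mouse gave 1 library. The study calls the MI tissue ischemic, and how much infarcted and how much surviving muscle each MI sample held is not given in the sources used here.

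The heartbeat starts as an electrical signal. Sodium channels open first and depolarise the cell, L-type calcium channels then admit the calcium that triggers a larger release from the sarcoplasmic reticulum through the ryanodine receptor, and several potassium currents return the membrane to rest. For relaxation, the calcium pump of the reticulum takes calcium back up under the control of phospholamban, and the sodium-calcium exchanger carries the remainder out of the cell.

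Depths ranged from 19977756 to 23473437 fragments in the sham hearts and from 21781031 to 23610923 in the MI hearts. The MI hearts were not alike. Across the 11431 genes tested, the correlation with the sham hearts was 0.878 to 0.881 for MI heart 1, 0.903 to 0.906 for MI heart 3 and 0.984 to 0.987 for MI heart 2, where sham hearts correlated with each other at 0.989 to 0.992. Genes are not independent replicates, and these correlations are descriptions. MI heart 2 was labelled as the others and is kept in the comparison, and the chief counts over the members are also given without it. That heart was set apart by its values in these same data. Counts and p-values without it therefore rest on MI hearts 1 and 3 alone and are descriptions. The tissue was heart muscle by its markers, with Myh6, the main myosin of the adult mouse ventricle, at 1908 FPKM or more in every heart. Of 6 atrial markers, Bmp10 was listed at 0 in every heart, Sln, an atrial regulator of the calcium pump, was at 0.244 or less, and the groups of Myl7 overlapped at 0.764 or less. Nppa, a peptide hormone of the atrium that the ventricle can also make, was at 69.7 to 185 in sham and at 7940, 160.1 and 8125 in MI hearts 1 to 3. Myl4 was above the sham range in every MI heart, at 0.189 to 0.282 in sham and 0.833, 0.333 and 0.967 in MI, and Stard10 was below it in every MI heart. Of 6 skeletal muscle markers, the myosin Myh4 was listed at 0 in every heart, and Tnnt3 alone had every MI heart above the sham range, at 0.138 to 0.208 in sham and 1.88, 0.221 and 2.54 in MI. A list of 10 structural genes of the cardiomyocyte, the heart muscle cell, summed to 15735 to 16952 FPKM across the sham hearts and reached 10680, 15693 and 11587 in MI hearts 1, 2 and 3. For fibroblasts, 8 of 8 markers were above the sham range in both MI hearts 1 and 3, and their sum was 122 to 145 FPKM in sham against 2492, 232 and 1923 in MI. For macrophages and other leukocytes it was 8 of 8 markers as well, with 195 to 248 FPKM in sham and 1301, 234 and 1118 in MI. The 7 endothelial markers summed to 139 to 164 in sham and to 182, 133 and 195 in MI, and the 5 smooth muscle markers to 67.4 to 92.0 and to 189, 68.6 and 227. Mitochondrial genes held 26.5% to 27.4% of the fragments in sham and 13.6%, 28.2% and 15.0% in MI. These shifts moved with nearly every difference given below, and their part in those differences was not tested. In such bulk tissue, fewer cardiomyocytes and less RNA of a gene per cardiomyocyte cannot be told apart.

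Most of the 41 genes had a lower mean after infarction. In 16 of them every MI heart lay below every sham heart, and in 2 (Camk2d and Stim1) every MI heart lay above, while the groups of the other 23 overlapped. Among all genes tested, 9.0% had every MI heart below the sham hearts and 16.1% had every MI heart above, and among genes above 0 in any heart the shares were 4.34% and 12.0%. Genes had to reach an FPKM of 1 in 3 or more hearts to be tested, which kept 39 of the 41, leaving out Cacna1h and Kcnd3, and Stim1 passed it only through the MI hearts. At an unadjusted p under 0.05 in limma's moderated test of log2(FPKM + 1), 22 of the 39 were lower (9.85% of all genes tested) and 2, Itpr1 and Itpr2, were higher (29.5% of all). Stim1 was past the threshold as well but is left out of this count, having been tested only for its level in the MI hearts. With no filter, 23 of the 41 were lower (4.77% of the genes above 0 in any heart) and 3, Stim1 included, were higher (20.6%). After Benjamini-Hochberg adjustment over the 11431 genes, limma called 0 members in either direction at 0.05, and over all genes it called 1 as lower (0.00875%) and 2 as higher (0.0175%). The lowest adjusted limma p of a member was 0.108. Without MI heart 2, limma called 29 of the 39 members as lower at an adjusted p under 0.05 (14.7% of all genes) and 3, Itpr1, Itpr2 and Slc8a1, as higher (57.0% of all), again with Stim1 not counted. With no filter as well, it was 29 of the 41 as lower (5.97%) and 4, Stim1 included, as higher (36.2%). At an unadjusted p under 0.05, 10 were lower when MI heart 1 was left out (4.93% of the genes tested), 10 when MI heart 3 was (4.68%) and 14 when sham heart 3 was (6.65%). On the log2(FPKM + 1) scale, the median change of the 39 was -0.43 against 0.21 for all genes tested, and with no filter that of the 41 was -0.39 against 0.062. The same medians were -0.58 and 0.33 when MI heart 2 was left out.

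**Figure D1:**
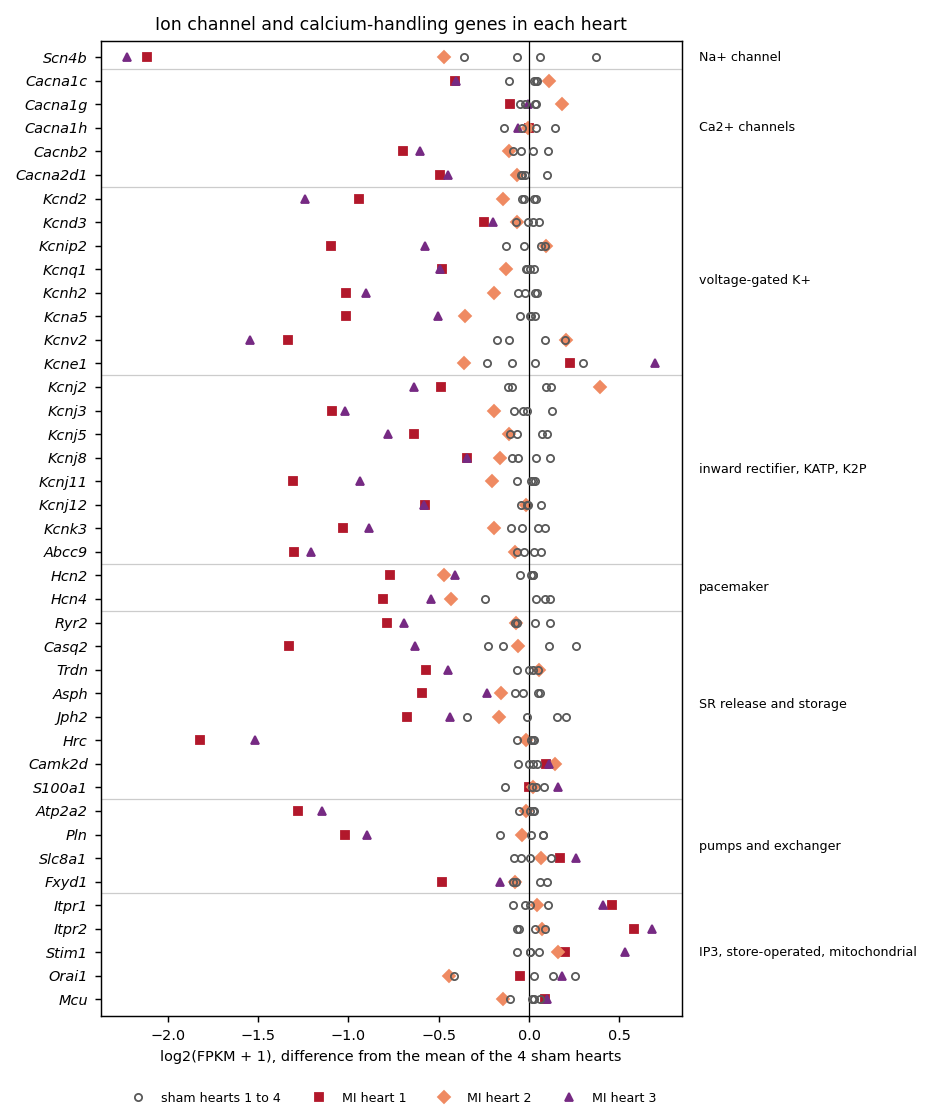
Each row is 1 of the 41 genes, grouped by role, and the horizontal axis is log2(FPKM + 1) in a heart minus the mean of the 4 sham hearts. Open circles are sham hearts and filled symbols the 3 MI hearts. In 30 genes both MI heart 1 (square) and MI heart 3 (triangle) lie below the sham range and in 6 above it, while MI heart 2 (diamond) is inside the sham range in 14.

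MI hearts 1 and 3 both lay below the sham range in 30 of the 41 genes and above it in 6, where 16.9% and 61.9% of all genes tested did so. MI heart 2 was inside the sham range for 14 genes, below it for 19 and above it for 8. Among 111 other genes of the same pathways, described further below, these counts were 54, 28 and 29. No share over all genes is given for this heart alone. For most genes its shortfall was small. It reached 68.6% of the sham mean for Scn4b, 68.4% for Hcn2, 60.3% for Hcn4, 76.8% for Kcna5, 63.6% for Kcne1 and 62.6% for Orai1, and in these 6 genes it was below every sham heart.

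**Figure D2:**
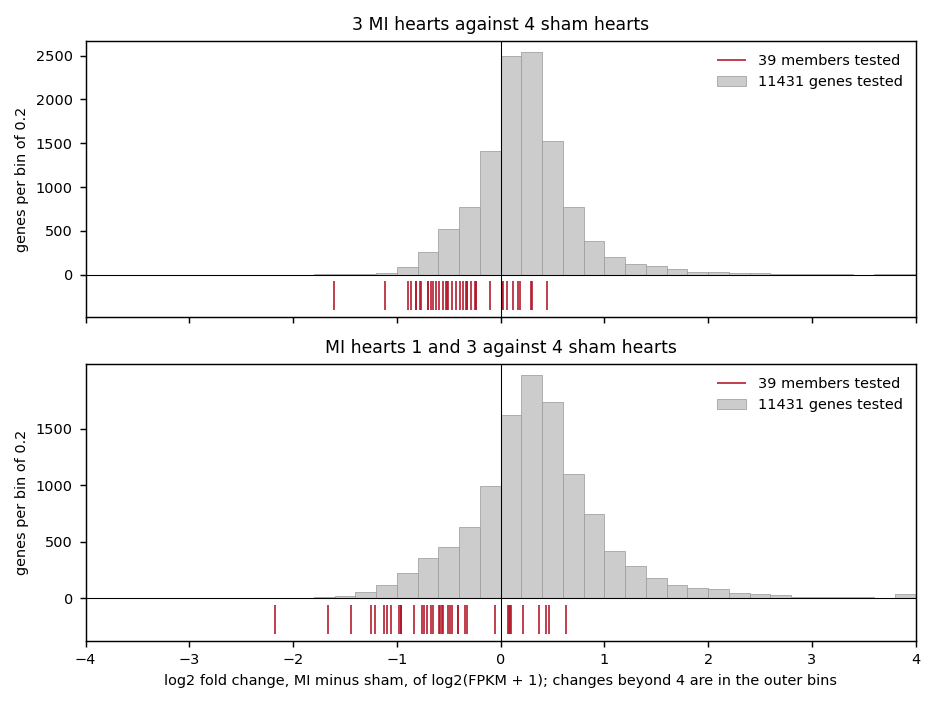
Grey bars count the 11431 genes tested by their log2 fold change (MI minus sham, of log2(FPKM + 1)), and red ticks mark the 39 members that passed the filter. The upper panel uses all 7 hearts and the lower one leaves out MI heart 2. The median is -0.43 for the members and 0.21 for all genes above, and -0.58 and 0.33 below.

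The largest difference of the 41 was in Scn4b, which encodes a beta subunit that joins the sodium channel and alters its gating. Scn4b (ENSMUSG00000046480, chromosome 9 from 45138395 to 45154152, GRCm38) stood at 15.5, 11.2, 8.95 and 12.3 FPKM in sham hearts 1 to 4 and at 1.95, 8.24 and 1.73 in MI hearts 1 to 3. All 3 MI hearts were below the lowest sham heart, MI hearts 1 and 3 by far and MI heart 2 by little. The mean was 12.0 ± 2.73 (SD, n = 4) in sham and 3.97 ± 3.69 (SD, n = 3) in MI. The log2 fold change was -1.60 (standard error 0.43, limma unadjusted p = 0.00636, adjusted p = 0.108). Leaving out MI heart 2 gave -2.17 (standard error 0.18, limma adjusted p = 6.39e-05).

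Among the calcium channel subunits, the 2 auxiliary subunits of the L-type channel were lower in every MI heart, as 9.0% of the genes tested were. Cacnb2, the beta subunit that brings the pore to the membrane, was at 2.96 to 3.54 FPKM in sham and at 1.59, 2.90 and 1.78 in MI hearts 1 to 3. Its exons share 618, 239 and 111 bases with Gm10849, Gm13269 and Gm10848, all on the opposite strand. Cacna2d1, the extracellular alpha2delta subunit, was at 10.5 to 11.7 in sham and at 7.41, 10.3 and 7.66 in MI. For Cacnb2 the log2 fold change was -0.47 (standard error 0.15) and for Cacna2d1 -0.34 (standard error 0.12), with MI heart 2 just under the sham range in both. The pore itself, Cacna1c, stood at 7.65, 8.61, 8.63 and 8.54 in sham and at 6.04, 9.09 and 6.05 in MI. MI hearts 1 and 3 were at 72.3% and 72.4% of the sham mean, MI heart 2 was above all sham hearts, and the log2 fold change of -0.24 (standard error 0.15) did not pass the unadjusted threshold. The T-type channels, low in the adult ventricle, showed no comparable shortfall. Cacna1g was between 1.38 and 1.91 FPKM in the MI hearts against 1.48 to 1.63 in sham, and Cacna1h between 0.501 and 0.569 against 0.422 to 0.735. When MI heart 2 was left out, 3 of the 4 subunits that passed the filter were lower at an adjusted limma p under 0.05 (14.7% of the genes tested) and Cacna1g was not (adjusted p = 0.50).

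Of the 8 voltage-gated potassium channel genes, 4 had every MI heart below every sham heart, as 9.0% of the genes tested had. They were Kcnd2 and Kcna5, pores of the transient outward and of an ultrarapid repolarising current, and Kcnq1 and Kcnh2, pores of the slow and the rapid delayed rectifier. Kcnd2 was at 7.62, 7.22, 7.68 and 7.31 FPKM in sham and at 3.40, 6.66 and 2.57 in MI (log2 fold change -0.78, standard error 0.24). Kcnh2 was at 17.1, 16.0, 16.4 and 17.3 in sham and at 7.78, 14.5 and 8.46 in MI (log2 fold change -0.70, standard error 0.19). In both genes MI hearts 1 and 3 were at or under 50.6% of the sham mean and MI heart 2 at 86.6% or more. Kcna5 differed in that all MI hearts were well below, at 7.57, 12.5 and 11.2 against 15.7 to 16.8 in sham (log2 fold change -0.62, standard error 0.16). Kcnq1 had a smaller difference, 8.06, 10.6 and 7.99 against 11.5 to 11.9 (log2 fold change -0.37, standard error 0.11). It shares 121 exon bases with the antisense RNA Kcnq1ot1. Whether counting used the strand is not given in the sources used here, so reads on these shared bases cannot be told apart.

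The partners of these pores were split. Kcnip2, the calcium-binding subunit of the transient outward channel, was at 22.4 to 26.2 FPKM in sham and at 11.0, 26.3 and 16.1 in MI, and Kcnv2, a subunit silent by itself that modifies other channels, was at 2.34 to 3.33 in sham and at 0.494, 3.34 and 0.290 in MI. In these genes MI hearts 1 and 3 were far below the sham range and MI heart 2 just above it. For Kcnv2 the log2 fold change was -0.89 (standard error 0.40) with all hearts and -1.44 (standard error 0.13) without MI heart 2, and 35 to 386 fragments lay behind the MI values. Kcne1, the small subunit that slows Kcnq1 channels, was at 1.25 to 2.25 in sham and at 2.10, 1.06 and 3.30 in MI. For this gene MI heart 2 was below, MI heart 3 above and MI heart 1 inside the sham range. Kcnd3, the second pore of the transient outward current, was under the filter at 0.290 to 0.413 FPKM in sham and 0.142, 0.299 and 0.184 in MI. With MI heart 2 left out, 6 of the 7 genes that passed the filter were lower at an adjusted limma p under 0.05 (14.7% of the genes tested), and Kcne1 was not (log2 fold change 0.46, adjusted p = 0.051).

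Of the inward rectifier, KATP and background potassium channels, 6 of 8 had every MI heart below every sham heart (9.0% of the genes tested), and 7 of 8 were lower at an unadjusted p under 0.05 (9.85%). The KATP channel of the ventricle joins pores from Kcnj11 to regulatory sulfonylurea receptors, among them the product of Abcc9. Kcnj11 stood at 27.4, 27.0, 27.2 and 25.5 FPKM in sham and at 10.2, 23.1 and 13.5 in MI. Its partner Abcc9 was at 44.2, 43.0, 46.0 and 47.3 in sham and at 17.7, 42.6 and 19.0 in MI. The log2 fold changes were -0.82 (standard error 0.24) and -0.86 (standard error 0.28), and in both genes MI heart 2 was below the lowest sham heart. Kcnj8, a KATP pore found mainly in vascular mural cells, differed less, with 7.76, 8.94 and 7.76 against 9.41 to 11.1 (log2 fold change -0.28, standard error 0.10). The markers of pericytes, one kind of mural cell, summed to 164 to 181 FPKM in sham and to 177, 164 and 177 in MI hearts 1 to 3. Rgs5 made up most of that sum, at 131 to 146 in sham and 131, 137 and 132 in MI, and the other markers did not move alike. Pdgfrb was at 10.6 to 12.6 in sham and 24.2, 10.9 and 22.3 in MI, and Cspg4 and Notch3 were also above the sham range in MI hearts 1 and 3, whereas Vtn was at 8.52 to 11.6 in sham and 7.02, 6.66 and 6.94 in MI. Their part in the level of Kcnj8 was not tested.

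Kcnk3, the background two-pore channel TASK, had a higher level per merged exon length in the sham hearts than the other channel genes, and stood at 72.0, 70.1, 63.2 and 65.9 FPKM in sham and 32.7, 59.1 and 36.2 in MI. Its log2 fold change was -0.70 (standard error 0.20). The pores of the acetylcholine-activated channel, known best from atrium and sinus node, were Kcnj3 at 2.38 to 2.92 in sham against 0.684, 2.14 and 0.769 in MI, and Kcnj5 at 4.94 to 5.85 against 3.10, 4.92 and 2.72. Of the sham mean, MI hearts 1 and 3 held 26.4% and 29.7% for Kcnj3 and 57.5% and 50.4% for Kcnj5. The exons of Kcnj3 share 1621 bases with Gm26794 on the opposite strand. The channels of the resting inward rectifier current were the exceptions in this group. Kcnj2 was at 4.94, 9.94 and 4.36 in MI against 6.67 to 8.05 in sham, with MI heart 2 at 135% of the sham mean, and Kcnj12 at 3.40, 5.49 and 3.38 against 5.36 to 5.86. All 8 genes of the group were, once MI heart 2 was left out, lower at an adjusted limma p under 0.05 (14.7% of the genes tested).

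Both pacemaker channels were lower in every MI heart, as 9.0% of the genes tested were, and they had the smallest p-values of the 39. Hcn2, the main form of the ventricle, was at 7.81, 7.37, 7.74 and 7.81 FPKM in sham and at 4.09, 5.25 and 5.53 in MI (log2 fold change -0.55, standard error 0.11, limma unadjusted p = 0.00126, adjusted p = 0.108). Hcn4, the main form of the sinus node, was at 2.19, 2.12, 2.02 and 1.48 in sham and at 0.675, 1.18 and 1.02 in MI (log2 fold change -0.59, standard error 0.13, limma unadjusted p = 0.00262). In these genes, unlike most of the others, MI heart 2 lay near MI heart 3 and not near the sham hearts, and leaving it out moved the log2 fold changes little, to -0.59 and -0.68. The 5 markers of the conduction system summed to 2.01 to 2.43 FPKM in sham and to 4.51, 2.42 and 4.34 in MI. Most of that difference was in Tbx18, at 1.01 to 1.13 in sham and 3.00, 1.22 and 2.87 in MI, and Tbx3 was at 0.831 to 1.20 in sham and 1.06, 1.06 and 0.812 in MI. Isl1 was listed at 0 in every sham heart and was at 0.094, 0.016 and 0.063 in MI, Cntn2 was at 0.029 to 0.101 in sham and 0.109, 0.112 and 0.347 in MI, and Shox2 was at 0.053 to 0.090 in sham and 0.250, 0.018 and 0.247 in MI. Every MI heart was thus above the sham range in 3 of the 5, Tbx18, Isl1 and Cntn2, where Hcn4 was below it. Among genes above 0 in any heart, 12.0% had every MI heart above. Isl1 was near the floor, with 0 fragments in the sham hearts and 2 to 11 in the MI hearts. Cntn2 had 13 to 40 fragments in sham and 47 to 162 in MI. The part of these 5 markers in the levels of Hcn4 was not tested.

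The release and storage proteins of the sarcoplasmic reticulum held both large and absent differences. Hrc, the histidine-rich calcium-binding protein of the lumen (chromosome 7 from 45335290 to 45338974), stood at 374, 398, 394 and 399 FPKM in sham and at 110.0, 386 and 136 in MI. Relative to the sham mean, MI hearts 1 and 3 were at 28.1% and 34.8% and MI heart 2 at 98.6%, inside the sham range. Its log2 fold change was -1.12 (standard error 0.40, limma unadjusted p = 0.025) and, without MI heart 2, -1.67 (standard error 0.09). Casq2, the main calcium buffer of the store, was at 139, 184, 131 and 165 in sham and at 60.4, 147 and 98.4 in MI (log2 fold change -0.68, standard error 0.29), and the ryanodine receptor Ryr2 at 47.7, 48.1, 54.7 and 51.6 in sham and at 28.8, 47.9 and 30.8 in MI (log2 fold change -0.52, standard error 0.18). Both had MI heart 2 inside the sham range. Trdn and Asph, whose products anchor calsequestrin to the release channel, and Jph2, which holds the reticulum against the transverse tubule, had log2 fold changes of -0.32, -0.33 and -0.43. Of these 3, Asph alone had every MI heart below every sham heart. Its exons share 2302 bases with Clvs1 on the opposite strand.

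Camk2d, the calcium/calmodulin-dependent kinase that phosphorylates many of these proteins, and S100a1, a calcium sensor that binds the release channel and the pump, did not follow. Camk2d was at 1.75 to 1.96 FPKM in sham and at 2.07, 2.17 and 2.10 in MI, above the sham hearts in each MI heart, but its log2 fold change of 0.12 (standard error 0.08) did not pass the unadjusted threshold and became -0.094 when hearts were scaled by their median log-ratio. S100a1 was at 292, 283, 280 and 251 in sham and at 276, 280.0 and 309 in MI, a log2 fold change of 0.059 (standard error 0.12), or -0.15 with that scaling. When MI heart 2 was left out, 6 of the 8 genes were lower at an adjusted limma p under 0.05 (14.7% of the genes tested), Camk2d and S100a1 being the others.

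The calcium pump of the reticulum, Atp2a2, was the most abundant member in every heart. It stood at 1418, 1496, 1480 and 1502 FPKM in sham and at 607, 1457 and 665 in MI. MI hearts 1 and 3 were at 41.2% and 45.1% of the sham mean, while MI heart 2, at 98.9%, was within the sham range. The log2 fold change was -0.81 (standard error 0.30, limma unadjusted p = 0.030) with all hearts and -1.21 (standard error 0.06, limma adjusted p = 8.71e-06) without MI heart 2. Pln, the inhibitor of that pump, was at 116, 122, 122 and 103 in sham and at 56.4, 112 and 61.5 in MI (log2 fold change -0.65, standard error 0.24). It shares 1644 exon bases with Gm47644 and 141 with Cep85l, both on the opposite strand. Fxyd1, phospholemman, the regulator of the sodium pump, differed less (log2 fold change -0.24, standard error 0.12). Slc8a1, the sodium-calcium exchanger, was not lower: it stood at 13.5, 13.9, 15.7 and 14.4 in sham and at 16.3, 15.1 and 17.3 in MI. MI hearts 1 and 3 were above the sham range and MI heart 2 inside it, with a log2 fold change of 0.16 (standard error 0.10) that became -0.045 with median log-ratio scaling. Without MI heart 2, Atp2a2, Pln and Fxyd1 were lower (14.7% of the genes tested) and Slc8a1 higher (57.0%) at an adjusted limma p under 0.05.

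The 250 bases before the RefSeq start of 4 genes of this calcium cycle are shown because the genes differed in direction: Pln, Casq2 and Hrc were lower in MI hearts 1 and 3 and Slc8a1 was higher. They are from RefSeq on GRCm38.p6 and read 5′ to 3′ on the strand of the gene. Capitals mark the letters of TATAAA, of GATAA or TTATC (the same motif on either strand), and of the MEF2 motif.
Pln, chr10:53337436-53337685, plus strand: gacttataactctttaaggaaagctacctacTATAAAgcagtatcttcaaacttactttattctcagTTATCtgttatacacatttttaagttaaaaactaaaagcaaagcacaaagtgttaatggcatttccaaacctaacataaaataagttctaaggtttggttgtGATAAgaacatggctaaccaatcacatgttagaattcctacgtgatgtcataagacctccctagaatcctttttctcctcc
Casq2, chr3:102086165-102086414, plus strand: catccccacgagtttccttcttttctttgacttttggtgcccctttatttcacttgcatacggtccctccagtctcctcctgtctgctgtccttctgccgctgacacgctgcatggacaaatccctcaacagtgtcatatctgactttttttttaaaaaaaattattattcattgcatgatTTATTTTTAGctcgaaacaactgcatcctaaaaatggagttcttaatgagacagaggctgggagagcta
Hrc, chr7:45335019-45335268, plus strand: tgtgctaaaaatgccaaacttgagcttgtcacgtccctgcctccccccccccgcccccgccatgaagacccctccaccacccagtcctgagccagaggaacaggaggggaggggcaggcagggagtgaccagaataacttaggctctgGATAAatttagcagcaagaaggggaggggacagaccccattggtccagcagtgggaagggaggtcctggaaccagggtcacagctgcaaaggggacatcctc
Slc8a1, chr17:81738388-81738637, minus strand: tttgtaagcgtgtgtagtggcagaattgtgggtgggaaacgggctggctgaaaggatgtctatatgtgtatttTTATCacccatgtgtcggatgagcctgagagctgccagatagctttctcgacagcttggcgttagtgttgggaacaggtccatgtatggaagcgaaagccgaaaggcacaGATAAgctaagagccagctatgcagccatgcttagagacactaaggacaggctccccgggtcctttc
RefSeq held 34 such windows for 30 of the 41 genes. TATAAA on either strand stood in 1 of them, that of Pln, and in 12.4% of all 32851 windows. GATAA stood in 5 (Hrc, Kcnj2, Pln, Slc8a1 and Stim1) and in 22.6% of all, CACGTG in 1 (Kcnj2) and in 6.02%, the MEF2 motif in 1 (Casq2) and in 2.92%, and the CArG motif in 0 and in 1.47%. In these 4 windows no motif overlapped another. The median share of G and C was 62.8% in the windows of the 41 genes and 52.4% in all, and that of Pln was the lowest of the 34 at 32.8%. Pln, Hrc and Slc8a1 all held GATAA, with different directions of change between them.

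In 4 of the 5 genes of the last group both MI hearts 1 and 3 were above every sham heart, as were 61.9% of the genes tested. Itpr1 and Itpr2, receptors that release calcium when inositol trisphosphate binds, were at 2.09 to 2.53 and 1.43 to 1.72 FPKM in sham. In MI hearts 1 to 3 Itpr1 was at 3.51, 2.38 and 3.36 and Itpr2 at 2.82, 1.68 and 3.09. In both genes MI hearts 1 and 3 were above every sham heart and MI heart 2 was inside the sham range, with log2 fold changes of 0.30 (standard error 0.12) and 0.45 (standard error 0.15). Stim1, the sensor of store filling, was at 0.717 to 0.869 in sham and at 1.06, 1.01 and 1.60 in MI, above every sham heart in each (log2 fold change 0.30, standard error 0.11). Orai1, the channel that Stim1 opens, was at 1.83 to 3.49 in sham and at 2.64, 1.77 and 3.27 in MI, and Mcu, the pore of the mitochondrial uniporter, at 2.69 to 3.14 and at 3.23, 2.59 and 3.25. In these 2 genes the groups overlapped. With median log-ratio scaling, Itpr2 was the 1 member higher at an unadjusted p under 0.05 (19.5% of the genes tested), and Itpr1, Itpr2 and Stim1 then had log2 fold changes of 0.095, 0.24 and 0.087. These genes are also expressed by cells other than cardiomyocytes, and the fibroblast and leukocyte sums given above were higher in the same hearts. Their part was not tested.

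The members were next set against the structural genes of the cardiomyocyte, to ask whether they were lower by more or by less than the muscle cell's other messages. Within each heart the mean log2(FPKM + 1) of the 10 structural genes was subtracted. Its sham values were 9.64 to 9.70, and MI hearts 1 to 3 were at 8.93, 9.64 and 9.14, a change of -0.44. Relative to it, 6 of the 41 genes had every MI heart below every sham heart (1.58% of all genes tested) and 5 had every MI heart above (25.7% of all). The 6 were Scn4b, Kcnd2, Kcnh2, Kcnj3, Kcnj11 and Kcnk3, with differences of -1.16, -0.34, -0.26, -0.33, -0.38 and -0.26 on the log2 scale. The 5 were Cacna1c, Cacna1g, Trdn, Camk2d and Stim1, at 0.20, 0.46, 0.12, 0.55 and 0.74. The 10 structural genes were themselves not alike. Relative to their own mean they ranged from -0.49 for Tnni3 to 0.52 for Mybpc3, a range that holds 5 of the 6 lower members, Scn4b being the exception, and without MI heart 2 limma called 4 of the 10 as lower and 4 as higher at an adjusted p under 0.05. Each of these 11 members had an exact two-sided permutation p of 0.0571, the smallest that 3 against 4 hearts allow, so no single gene could pass 0.05. With the median in place of the mean of the structural genes, 3 were lower and 4 higher without overlap. No share over all genes is given for the median, so these counts have no background beside them.

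In MI hearts 1 and 3 alone, 11 genes were below the sham range relative to the structural genes, where 3.36% of all genes were. To the 6 named they add Kcnv2, Abcc9, Atp2a2, Pln and Hrc. Hrc lay -1.07 and -0.98 from the sham mean in those hearts and Atp2a2 -0.53 and -0.61. Another 18 genes were above the range on this scale, where 88.7% of the genes tested were, with the untested Cacna1h and Kcnd3 among the 18. The 1 added to FPKM weighs on the genes of low level. As ratios of FPKM with nothing added, 14 genes were below the sham range in both hearts (4.86% of the genes tested and above 0 in every heart), and 15 were above it (85.6%). The 14 are the 11 with Cacnb2, Kcnd3 and Hcn4, and the 15 are the 18 without Cacna1h, Kcnd3 and Kcnq1. Kcnd3 thus turned from above to below the range, its ratio lying -0.58 and -0.42 from the sham mean on the log2 scale in MI hearts 1 and 3. Over all 3 MI hearts, 7 ratios were below the sham range, the 6 and Hcn4 (2.29% of those genes), and the same 5 were above (23.7%). Ryr2, Cacna2d1, Kcnip2, Kcnj2, Kcnj5, Kcnj12, Kcna5, Hcn2, Casq2 and Jph2 had MI hearts 1 and 3 on no common side by either measure. A single heart could still lie outside the sham range, as MI heart 1 lay below it for Casq2 and Kcnip2. In limma with this scaling, 0 members passed an adjusted p under 0.05, and 3 were lower (0.639% of those tested) and 7 higher (51.7%) at an unadjusted p under 0.05. Without MI heart 2, limma called 11 as lower (2.8%) and 13 as higher (88.0%) at an adjusted p under 0.05. Stim1, which passed the filter only through the MI hearts, is among the higher in both counts.

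**Figure D3:**
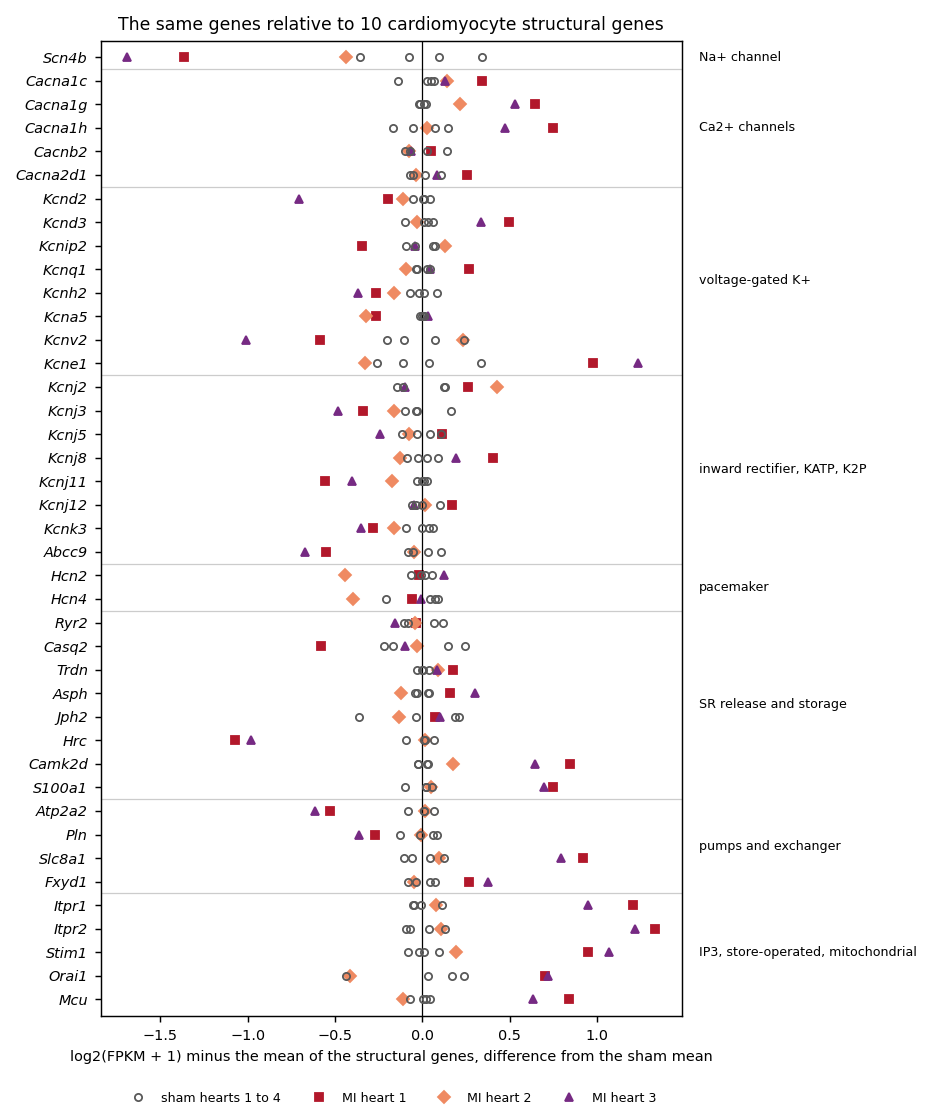
Rows and symbols are as in the plot of the members by heart, but the horizontal axis is log2(FPKM + 1) of each gene minus the mean log2(FPKM + 1) of 10 structural genes of the cardiomyocyte in the same heart, set against the mean of the 4 sham hearts. For genes near or under 1 FPKM this is not a ratio of FPKM. In MI hearts 1 and 3 Scn4b lies farthest to the left, at -1.37 and -1.69, Hrc lies at -1.07 and -0.98, and Itpr2 is to the right at 1.33 and 1.22.

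Ratios between partner genes within a heart do not depend on the scaling between hearts, and 12 were computed. In none of the 12 ratios of FPKM did the groups separate, and the smallest exact two-sided permutation p was 0.114 (0.274 after Benjamini-Hochberg adjustment over the 12). With 1 added to each FPKM, Kcnd2 to Kcnd3 had a difference of -0.60 on the log2 scale in place of -0.096, with an exact permutation p of 0.0571 (0.343 when adjusted for the 12 pairs), which is the lower limit for 3 against 4 hearts. Kcnd3 was under 1 FPKM in every heart. The exchanger to the pump, Slc8a1 to Atp2a2, shifted most. It was 0.00929 to 0.0106 in sham and 0.0268, 0.0103 and 0.0261 in MI hearts 1 to 3, with MI heart 2 within the sham range and a mean difference of 0.99 on the log2 scale. Kcnj5 to Kcnj3 was 1.74 to 2.34 in sham and 4.54, 2.30 and 3.54 in MI, and Kcnj8 to Kcnj11 was 0.346 to 0.403 in sham and 0.758, 0.388 and 0.574 in MI. For all 3 ratios MI hearts 1 and 3 were above the sham hearts and MI heart 2 was among them. Pln to Atp2a2, inhibitor to pump, was 0.0686 to 0.0824 in sham and 0.0929, 0.0770 and 0.0926 in MI, a difference of 0.15 on the log2 scale. Hcn4 to Hcn2 was 0.190 to 0.287 in sham and 0.165, 0.224 and 0.184 in MI. Outside the sham range were MI hearts 1 and 3 in both ratios, higher in the former and lower in the latter, with MI heart 2 inside it. The other 7 ratios had MI hearts 1 and 3 on no common side of the sham range.

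**Figure D4:**
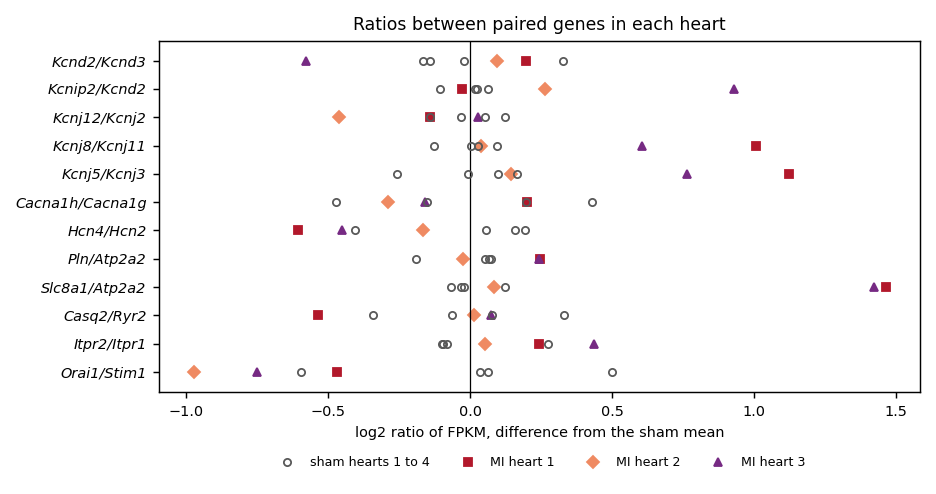
Each row is the ratio of FPKM of a pair of genes, as log2 minus the mean of the 4 sham hearts, with symbols as in the plot of the members by heart. MI hearts 1 and 3 lie to the right for Slc8a1 to Atp2a2, Kcnj5 to Kcnj3 and Kcnj8 to Kcnj11, with MI heart 2 among the sham hearts.

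A list of 112 other genes of the same pathways, of which 111 were found in the table and 54 passed the filter, was tested in the same fits. At an unadjusted limma p under 0.05, 15 of the 54 were lower (9.85% of the genes tested) and 19 higher (29.5%), and 0 passed after adjustment. Their median change was 0.21, as for all genes. Without MI heart 2, 17 were lower (14.7% of the genes tested) and 30 higher (57.0%) at an adjusted limma p under 0.05. Cacnb3, Mcub and Slc8b1, which reached 1 FPKM in fewer than 3 sham hearts, are among the higher in both counts. The largest differences without overlap among the genes that passed the filter included lower levels of Srl, sarcalumenin of the reticulum lumen, at 129 to 139 FPKM in sham and 61.3, 117 and 77.1 in MI, and of Tmem38a, the TRIC-A channel of the reticulum, at 122 to 135 and 69.1, 120.0 and 75.3. Camk2a, Kcnn2 and Jph1 were lower as well, with log2 fold changes of -0.48, -0.46 and -0.39. Higher levels were found for Cacnb3, another calcium channel beta subunit, at 0.698 to 0.950 in sham and 8.56, 1.37 and 6.90 in MI, opposite in direction to Cacnb2. Cacnb3 passed the filter only through the MI hearts. Fxyd5, Calr, Scn7a and Trpv4 had log2 fold changes of 1.28, 0.77, 0.61 and 0.56.

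Levels of different genes can be compared only per length, and the lengths behind the deposited values proved to count overlapping exons of a gene's transcripts more than once. For 39 of the 41 genes the fragments came out whole with the summed length of all distinct exons in GENCODE M21, which is 2.81 times the merged exon length for Pln, 2.21 times for Fxyd1 and 2.08 times for Camk2d, but equal to it for Scn4b, Kcnd2 and Hcn4. Per merged exon length, the sham means ran from 2284 for Atp2a2 over 499.9 for S100a1, 452 for Hrc, 326 for Pln and 229 for Casq2 to 0.942 for Cacna1h and 0.450 for Kcnd3. S100a1 and Hrc changed places against the deposited order, and Fxyd1 moved from rank 10 to 7. Differences between hearts in the same gene are not touched by the length, apart from the added 1, and with merged lengths 22 members were lower (9.87% of those tested) and 3, Stim1 included, higher (29.5%) at an unadjusted limma p under 0.05.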

How the data were processed

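The authors deposited FPKM values for 56980 genes in 7 hearts, and all value columns were used. Their processing notes name the mm10 build, CASAVA 1.8, HISAT2, SAMtools 1.3.1 and edgeR, without roles. The annotation, the counting program and its strand setting are not given in the sources used here.

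Identifiers were matched to GENCODE M21 (91.4% found). Whole fragments per gene, and depths, were recovered from the steps in the FPKM values, for 30504 of 30504 genes above 0. Fragments were called whole within 0.05 of a fragment or 3e-05 of the value. The recovery and the test were tested on simulated data. Depth limits single values through the fragment numbers, which were 35 or more in every heart for every member. No 2 hearts agreed within sampling noise: the median squared difference was at least 2.96 times that of counting alone.

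Tests used log2(FPKM + 1) for the 11431 genes that reached FPKM 1 in 3 or more hearts. MI and sham were compared two-sided by limma 3.58.1 with an intensity trend (R 4.3.3) and Benjamini-Hochberg adjustment at 0.05. Ratios and values relative to cardiomyocyte genes were tested by exact two-sided permutation over the 35 splits of the hearts. Members, lists and tests were chosen with earlier results of these data known. Besides the 41 members, genes were named if listed as markers, or, of the other pathway genes, as the 5 largest increases and 5 largest decreases among those that passed the filter and whose groups did not overlap. Alternatives were another pseudocount, filters, scalings, weights, a replicate block and each heart left out. Merged exon lengths, and the fits that leave out MI heart 2 with no filter or with cardiomyocyte scaling, and ratios to the cardiomyocyte genes with nothing added, were chosen after seeing the data. Other steps ran in Python 3.11.15 with NumPy 2.4.6, pandas 2.3.3, matplotlib 3.10.9 and SciPy 1.17.1.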

Additional observations from a re-analysis of the deposited data

Results flagged for a closer look

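Among the sham hearts, 1 heart lay off the other 3 in 5 of the sets of values looked at, in that its gap to the nearest took up a larger share of the range than Dixon's critical value for 4 values. For Cacna1c the share was 0.904, with sham heart 1 low at 7.65 FPKM against 8.54 to 8.63. For Cacna2d1 it was 0.858, with sham heart 3 high at 11.7 against 10.5 to 10.7. For Hcn2 it was 0.854, with sham heart 2 low at 7.37 against 7.74 to 7.81. Sham heart 4 stood apart in a pair of ratios. It was low for Pln to Atp2a2, at 0.0686 against 0.0813 to 0.0824 (share 0.927), and high for Itpr2 to Itpr1, at 0.822 against 0.635 to 0.644 (share 0.949). Of 54 sets tested, chance gives 2.7 such shares.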

How the results depend on the processing

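With another pseudocount, filter, length or scaling between hearts, or voom weights, limma called 0 members at an adjusted p in either direction. At an unadjusted p these settings, apart from the cardiomyocyte reference, called 16 (TPM) to 25 (median log-ratio) as lower, beside 4.9% and 19.2% of all genes. The median of all genes, 0.21, was 0.42 with TPM, 0.11 without mitochondrial genes and 0.65 with the cardiomyocyte reference. Sample weights, a fit that did not converge and put nearly all weight of the MI group on MI heart 3, called 29 as lower and 8 as higher (8 higher also at an unadjusted p), among 20.3% and 66.8% of all genes. Counts of higher members here include Stim1 where it was past the threshold. Over the fits without 1 heart, 0 to 29 were called lower and 0 to 4 higher, all of them without MI heart 2. Without that heart 14.7% of all genes were called lower and 57.0% higher. At an unadjusted p under 0.05, 22 were lower and 3 higher, and leaving out 1 heart gave 10 to 29 and 0 to 5. Over those fits 4.68% to 15.5% of all genes were lower and 8.33% to 58.8% higher. With MI heart 2 left out and no filter, 29 were lower and 4 higher at an adjusted p. Scaled to the cardiomyocyte reference, 3 were lower and 7 higher at an unadjusted p, and without MI heart 2 it was 11 and 13, at an adjusted p as well. The median change of the members was then 0.013, and 0.062 without MI heart 2. With median log-ratio scaling 1 was higher. With a block for the replicate number, which drops sham heart 4, 12 were lower (4.9% of all genes) and 1 higher (15.5%) at an unadjusted p, and 0 at an adjusted p. Deviations of same-numbered hearts correlated at 0.063, -0.0014 and -0.087, and those of unlike-numbered hearts at -0.086 to 0.086. With MI heart 2 unlike the other MI hearts, these values cannot decide whether the numbers pair the hearts.

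Relative to the cardiomyocyte genes, 6 to 11 members were lower and 5 to 18 higher without overlap when 1 heart was left out, most without MI heart 2. Without MI heart 2, 3.36% of the genes tested were below the sham range on this scale and 88.7% above it. With the median of the cardiomyocyte genes 3 members were lower, with no share over all genes given. The median relative change of 0.046 was -0.031 with a pseudocount of 0.1, -0.041 with nothing added and -0.017 to 0.081 with 1 heart left out.

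Directions of single log2 fold changes turned as follows. TPM turned Orai1 (0.052). Median log-ratio scaling turned Cacna1g (-0.19), Kcne1 (-0.021), Slc8a1 (-0.045), Camk2d (-0.094), S100a1 (-0.15) and Mcu (-0.20). With mitochondrial genes left out, Cacna1g (-0.050), S100a1 (-0.072) and Mcu (-0.086) turned, with sample weights Cacna1g (-0.0061) and Orai1 (0.16), and with the replicate block Mcu (-0.022). Scaling to the cardiomyocyte reference, which itself changed by -0.44, turned Cacna1c (0.20), Cacna2d1 (0.10), Kcnq1 (0.072), Kcnj2 (0.20), Kcnj8 (0.16), Kcnj12 (0.046), Trdn (0.12), Asph (0.11), Jph2 (0.013), Fxyd1 (0.20) and Orai1 (0.33). Leaving out 1 heart gave ranges of -0.028 to 0.093 for Mcu, -0.055 to 0.090 for Cacna1g, -0.25 to 0.066 for Orai1 and -0.066 to 0.46 for Kcne1. For the ratios it gave -0.24 to 0.15 for Kcnd2 to Kcnd3, -0.24 to 0.061 for Cacna1h to Cacna1g and -0.26 to 0.043 for Casq2 to Ryr2. With 1 added to each FPKM the difference for Kcnd2 to Kcnd3 was -0.60 in place of -0.096, and that for Hcn4 to Hcn2 -0.044 in place of -0.41. The causes were not tested.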
